A study of Homo sapiens with 6 samples.

Results

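The genes described here encode inhibitors of cyclin-dependent kinases (CDKs), the enzymes that drive the cell cycle, together with the CDK-directed phosphatase gene CDKN3. They were chosen by name as the 8 genes CDKN1A, CDKN1B, CDKN1C, CDKN2A, CDKN2B, CDKN2C, CDKN2D and CDKN3, out of 18417 genes measured. For 7 of the 8, a probe set naming that gene alone was present, 1 probe set for each gene, so none had a further probe set to compare with. CDKN2C, the gene of p18, was not analysed here.

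The RNA was that of A204 cells, a human line established from a rhabdoid tumour, and was measured on 6 Affymetrix whole-transcript arrays. The SAHA group held 3 arrays of cells given SAHA (vorinostat), which inhibits histone deacetylases, for 12 h, at a dose whose unit is incomplete in the labels. The control group held 3 arrays of A204 cells that received the solvent DMSO according to the treatment protocol, although the treatment label of these samples reads none. Both groups were the same single cell line, grown in the same medium with serum. Among the markers of the labelled cells, SMARCB1, whose loss is typical of rhabdoid tumours, had a level of 7.22 ± 0.05 in SAHA and 7.74 ± 0.04 in control, and the keratin gene KRT8 had 13.48 ± 0.02 in SAHA and 13.55 ± 0.01 in control (log2 units, SD, n = 3 each). The blood cell gene PTPRC had 4.08 ± 0.12 in SAHA and 4.05 ± 0.07 in control. Of 10 measured markers of blood, endothelium, skeletal muscle and epithelium, 6 did not pass the limma test, 2 were higher and 2 were lower. The endothelial cadherin gene CDH5 had 10.54 ± 0.03 in SAHA and 12.73 ± 0.03 in control, and changed by -2.19 (limma adjusted p = 1.1e-08). The muscle gene DES had 8.34 ± 0.11 in SAHA and 7.58 ± 0.08 in control, the epithelial gene EPCAM changed by 0.14 and CDH1 by -0.17. The part of these markers in the results that follow was not tested. The files held no detection calls, so no marker could be called absent. Median signals of the arrays lay between 142 and 149 on the linear scale. Since no label names separate cultures behind the arrays, p-values reflect only how these arrays scatter, which may be technical.

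CDK inhibitors fall into families by what they bind. The CIP/KIP proteins p21 (CDKN1A), p27 (CDKN1B) and p57 (CDKN1C) bind whole cyclin-CDK complexes and block CDK2 in particular, whereas the INK4 proteins p16 (CDKN2A), p15 (CDKN2B), p18 (CDKN2C) and p19 (CDKN2D) bind CDK4 and CDK6 and keep D-type cyclins away. CDKN3 is a phosphatase that takes the activating phosphate off CDK2, and its transcript is known to rise in dividing cells towards mitosis. CDKN1A is a classical gene induced by HDAC inhibitors, and in rhabdoid cells the return of SMARCB1 is known to raise CDKN2A.

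The genes did not move as a family. After SAHA, 4 of the 7 measured genes were higher (CDKN1A, CDKN2D, CDKN2B and CDKN1C) and 3 were lower (CDKN3, CDKN1B and CDKN2A), at an adjusted p under 0.05 by limma over all 18417 genes. The change ranged from -1.07 for CDKN3 to 1.30 for CDKN1A (log2 units, SAHA minus control), with a median of 0.14 over the 7 genes and -0.0027 over all genes. Of all genes tested, 60% were called, 31.1% higher and 28.9% lower, so a call alone does not set a gene apart in this comparison. Changes of at least 2-fold were found for CDKN1A, higher, and CDKN3, lower, where 5.84% of all genes were called and at least 2-fold higher and 5.42% at least 2-fold lower, together 11.3%. In each of the 7 genes the SAHA values lay wholly above or wholly below the control values, as they did for 65.4% of all genes (33.8% above and 31.6% below). In RNA of whole cultures, fewer cells with a transcript and less of it per cell cannot be told apart.

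**Figure D1:**
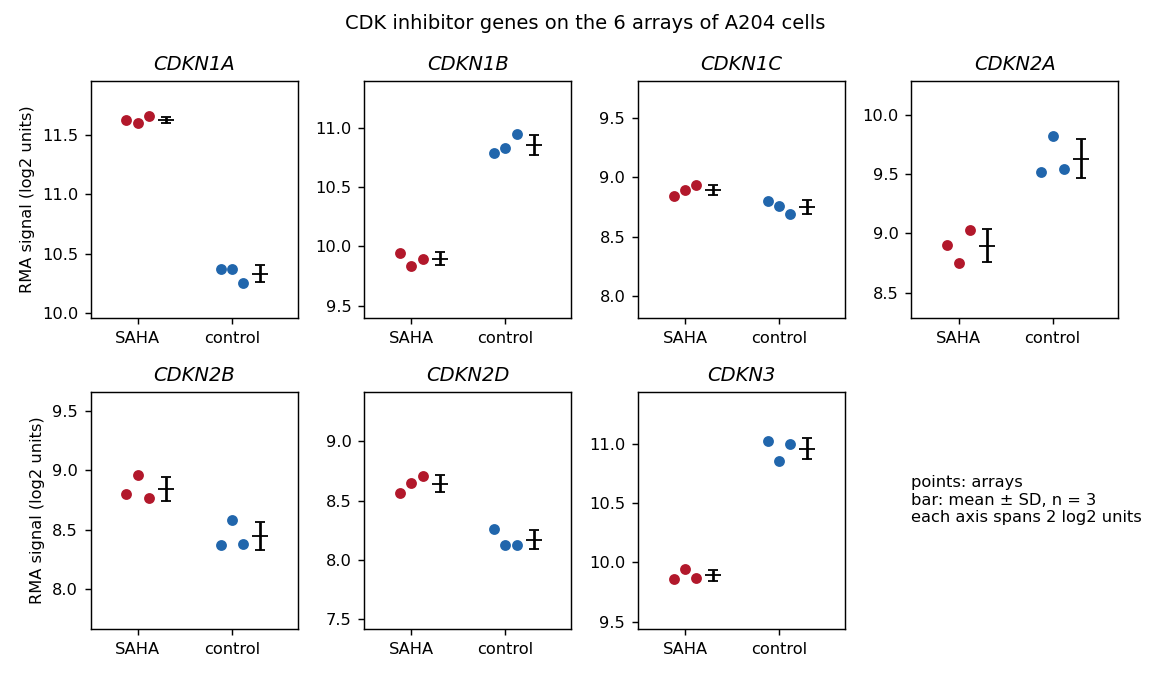
RMA signal (vertical axis, log2 units) of the 7 measured CDK inhibitor genes on each of the 3 SAHA arrays (red) and the 3 control arrays (blue). Black bars give mean ± SD, and every panel spans the same height in log2 units. SAHA points lie above control points for CDKN1A, CDKN1C, CDKN2B and CDKN2D and below them for CDKN1B, CDKN2A and CDKN3, with the smallest separation for CDKN1C.

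Among the CIP/KIP genes, CDKN1A, the gene of p21, rose 2.46-fold. Its level was 11.63, 11.60 and 11.66 on the SAHA arrays, against 10.37, 10.37 and 10.25 on the control arrays (log2 units). The groups were far apart, with 1.23 log2 units between the lowest SAHA and the highest control array, while arrays of a group spanned 0.056 in SAHA and 0.12 in control. On the linear scale this was a mean signal of 3165 in SAHA and 1290 in control. The difference was 1.30 ± 0.05 log2 units (SE, 95% confidence interval 1.18 to 1.41, limma adjusted p = 1.97e-07). By size the rise was large but not extreme, since 621 genes, 3.37% of all, rose by as much or more. Across 16 alternative settings the CDKN1A change stayed between 1.26 and 1.32.

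CDKN1B, which encodes p27, a brake on CDK2 that is high in resting cells, moved the other way and was 1.95-fold lower. Its level was 9.95, 9.84 and 9.90 on the SAHA arrays, against 10.79, 10.83 and 10.95 on the control arrays (log2 units). No SAHA array came within 0.84 log2 units of a control array. The difference was -0.96 ± 0.06 (SE, 95% confidence interval -1.09 to -0.83, limma adjusted p = 2.09e-06), and 5.81% of all genes fell by as much or more. Thus the CDKN1A and CDKN1B transcripts, whose proteins share CDK2 as a target, changed in opposite directions, each beyond the spread between arrays.

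CDKN1C, the gene of p57, an imprinted inhibitor expressed from the maternal allele, showed the smallest difference of the 7. Its level was 8.85, 8.89 and 8.93 on the SAHA arrays, against 8.80, 8.76 and 8.69 on the control arrays (log2 units). The groups did not overlap, but the gap between them, 0.044, was smaller than the span of arrays within either group. The difference was 0.14 ± 0.05 (SE, 95% confidence interval 0.029 to 0.25, limma adjusted p = 0.0352), which is 1.10-fold, and 32.2% of all genes rose by as much or more. The call was lost when arrays were centred on the median of housekeeping genes (limma adjusted p = 0.122) and with the replicate number as a block (0.0849). It was also lost without SAHA replicate 2 (0.0868), SAHA replicate 3 (0.122), control replicate 2 (0.0622) or control replicate 3 (0.0884). Over 16 alternatives its adjusted p lay between 0.00738 and 0.122, and the value stayed above 0 in all of them.

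Among the INK4 genes, CDKN2A was lower while CDKN2B and CDKN2D were higher. CDKN2A encodes p16 and, from another first exon and reading frame, ARF, an activator of p53. The annotation of its probe set lists transcripts of both, so the 2 products cannot be told apart here. Its level was 8.90, 8.75 and 9.03 on the SAHA arrays, against 9.52, 9.82 and 9.55 on the control arrays (log2 units). It was the most variable of the 7 genes, with arrays spanning 0.28 in SAHA and 0.30 in control, yet the groups stood 0.49 apart. CDKN2A was 1.66-fold lower, a difference of -0.73 ± 0.10 (SE, 95% confidence interval -0.96 to -0.51, limma adjusted p = 0.000251). By size, 1629 genes, 8.85% of all, fell by as much or more.

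CDKN2B, which encodes p15, an INK4 inhibitor known to be raised by TGF-beta signalling, lies next to CDKN2A on chromosome 9. Its level was 8.80, 8.96 and 8.77 on the SAHA arrays, against 8.37, 8.58 and 8.38 on the control arrays (log2 units). SAHA replicate 2 and control replicate 2 were the high arrays of their groups. The groups stood 0.1892 apart, less than arrays spanned within SAHA (0.1897) or within control (0.2138). CDKN2B was 1.32-fold higher, a difference of 0.40 ± 0.08 (SE, 95% confidence interval 0.22 to 0.57, limma adjusted p = 0.00198). The adjacent genes CDKN2A and CDKN2B therefore differed from control in opposite directions. Parts of their coding sequences are closely similar, and signal shared between their probes was not tested.

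CDKN2D, the gene of p19, an INK4 protein whose level varies through the cell cycle, had a level of 8.57, 8.65 and 8.71 on the SAHA arrays, against 8.26, 8.13 and 8.13 on the control arrays (log2 units). All SAHA arrays were above all control arrays, by at least 0.31. CDKN2D was 1.39-fold higher, a difference of 0.47 ± 0.06 (SE, 95% confidence interval 0.34 to 0.61, limma adjusted p = 0.000167). The rises of CDKN2B and CDKN2D were moderate in this comparison, as 18.7% and 16.1% of all genes rose by as much or more.

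CDKN3, the CDK2 phosphatase gene, had the largest fall of the 7. Its level was 9.86, 9.94 and 9.87 on the SAHA arrays, against 11.02, 10.86 and 11.00 on the control arrays (log2 units). The groups stood 0.91 apart, with arrays spanning 0.084 in SAHA and 0.16 in control. CDKN3 was 2.10-fold lower, a difference of -1.07 ± 0.06 (SE, 95% confidence interval -1.20 to -0.94, limma adjusted p = 1.16e-06), and 896 genes, 4.87% of all, fell by as much or more.

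**Figure D2:**
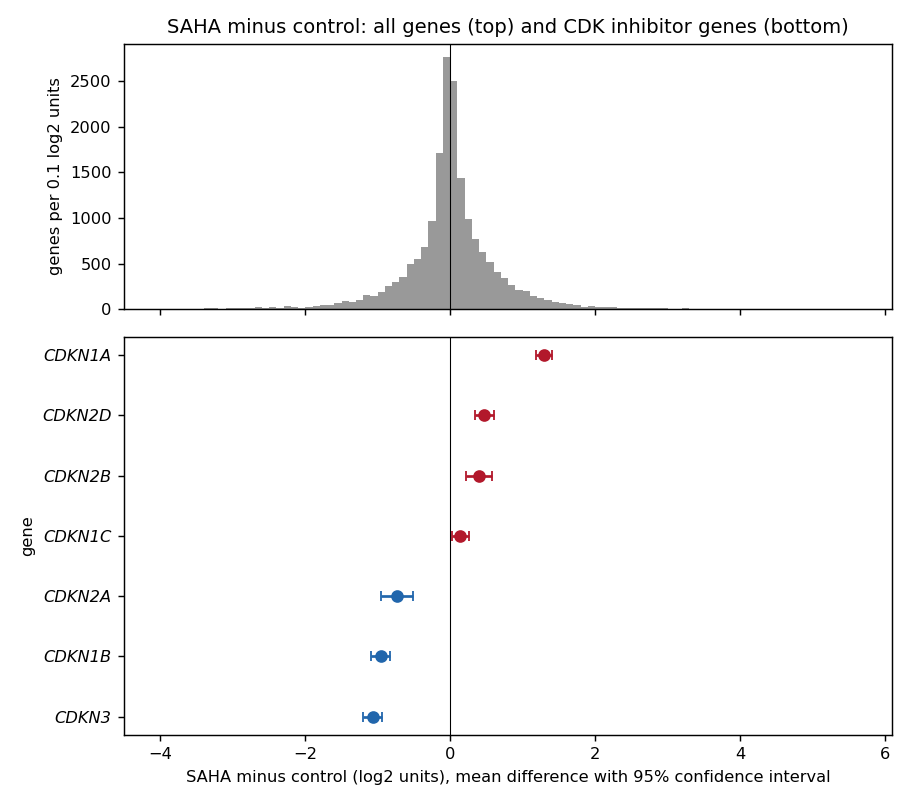
SAHA minus control (horizontal axis, log2 units) for all 18417 genes as a histogram (top, genes per bin) and for the 7 measured CDK inhibitor genes (bottom), where points are mean differences and bars their 95% confidence intervals. CDKN1A at 1.30 and CDKN3 at -1.07 lie in the flanks of the distribution, and CDKN1C at 0.14 lies near its centre.

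The sequences just upstream of CDKN1A, CDKN1B and CDKN3 are shown because these genes had the largest changes and because the response of CDKN1A to HDAC inhibitors has been mapped, as background, to GC boxes near its start, which bind SP1 and SP3. Each is the 250 bases before the RefSeq transcription start (GRCh38.p14), written on the strand of the gene, with every GC box, GGGCGG on either strand, in capitals.
CDKN1A (chr6:36678464-36678713, plus strand): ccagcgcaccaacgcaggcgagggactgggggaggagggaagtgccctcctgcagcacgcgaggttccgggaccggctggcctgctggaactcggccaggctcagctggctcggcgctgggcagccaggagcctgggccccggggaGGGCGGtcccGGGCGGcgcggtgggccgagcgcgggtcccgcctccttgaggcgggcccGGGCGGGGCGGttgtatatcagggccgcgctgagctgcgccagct
CDKN1B (chr12:12717118-12717367, plus strand): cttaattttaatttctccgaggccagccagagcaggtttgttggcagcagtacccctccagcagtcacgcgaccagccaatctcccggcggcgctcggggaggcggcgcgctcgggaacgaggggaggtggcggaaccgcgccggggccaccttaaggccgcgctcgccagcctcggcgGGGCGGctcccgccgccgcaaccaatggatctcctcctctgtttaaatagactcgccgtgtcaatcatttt
CDKN3 (chr14:54396757-54397006, plus strand): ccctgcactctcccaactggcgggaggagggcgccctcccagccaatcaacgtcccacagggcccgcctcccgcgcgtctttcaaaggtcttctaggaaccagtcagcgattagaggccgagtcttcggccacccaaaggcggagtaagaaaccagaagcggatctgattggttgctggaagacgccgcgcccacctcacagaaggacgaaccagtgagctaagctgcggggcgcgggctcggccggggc
The CDKN1A window held 4 GC boxes, all on the strand of the gene, beginning 104, 94, 45 and 40 bases upstream of the start, and the last 2 share 1 base. The CDKN1B window held 1, beginning 71 bases upstream, and the CDKN3 window held 0. Over all 35116 RefSeq windows of the same length, 42.6% held at least 1 GC box and 7.63% at least 4.

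The other measured genes were searched in the same way. CDKN2B and CDKN2D, both higher after SAHA, each had 2 GC boxes, a number that 24.3% of all windows reached. CDKN2A, which was lower, has 2 start sites in the RefSeq table, with 0 GC boxes before the distal one and 1 before the proximal one. The table held no window for CDKN1C. The NF-Y motif CCAAT, searched on both strands and found in 32% of all windows, occurred 2 times before CDKN1B, 2 times before CDKN3 and 1 time before CDKN2D. The element TTTGAA, a motif known from cell-cycle gene promoters, likewise searched on both strands and found in 13.3% of all windows, occurred 1 time before CDKN3, beginning 170 bases upstream and on the opposite strand, and in 0 of the windows of the other measured genes. These matches describe letters in the reference sequence, and binding was not measured.

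Regulators known to act on CDK inhibitor genes moved in both directions. Of 20 measured genes of this list 10 were higher, 6 were lower and 4 did not pass, with a median change of 0.12. Over all genes 31.1% were higher and 28.9% lower, the background for this list and those that follow. KLF6, a zinc-finger activator of CDKN1A, had 9.72 ± 0.07 in SAHA and 8.68 ± 0.13 in control (log2 units, SD, n = 3 each). FOXO4, a forkhead activator of CDKN1B, had 8.71 ± 0.04 in SAHA and 7.72 ± 0.10 in control. Of the related forkhead genes in the list, FOXO1 rose by 0.27, while FOXO3, at 0.00053, did not pass (limma adjusted p = 0.995). EZH2, the Polycomb methyltransferase that silences CDKN2A, changed by -0.995 (limma adjusted p = 3.21e-07), and CDKN2A was lower beside it. Of other known repressors of CDKN2A in the list, the Polycomb gene CBX7 rose by 0.46 (limma adjusted p = 0.00283) and TBX3 rose by 0.57. TBX2 changed by -0.27 and ID1 by -0.58 (limma adjusted p = 6.96e-06 for ID1). SMAD3, a TGF-beta effector that acts on CDKN2B, changed by -0.70, while CDKN2B was higher. SP1, which binds the GC boxes of CDKN1A, was at 11.43 ± 0.03 in SAHA and 11.44 ± 0.08 in control, a difference within the spread between arrays (limma adjusted p = 0.985) whose sign turned after a further quantile normalization. SP3 changed by -0.10 without passing the test (limma adjusted p = 0.14). MYC, a repressor of CDKN1A and CDKN2B, was higher by 0.23. The part of these regulators in the changes of the CDK inhibitor genes was not tested.

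CDKN1A is also a main target of p53. Of 18 other measured p53 target genes 6 were higher, 7 were lower and 5 did not pass, with a median change of -0.04 against 1.30 for CDKN1A. The stress kinase gene PLK3 at 2.06 and the growth-arrest gene GADD45A at 0.87 were the largest rises of this list, and the death receptor gene FAS at -1.90 and the stress gene SESN1 at -1.14 the largest falls. MDM2, the p53 ubiquitin ligase and a sensitive p53 target, was at 11.91 ± 0.04 in SAHA and 11.86 ± 0.03 in control (log2 units, SD, n = 3 each), a difference of 0.05 that did not pass (limma adjusted p = 0.415) and turned to -0.0029 after a further quantile normalization.

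Of the kinases and cyclins that the inhibitors act on, all 13 measured genes were called, 2 higher and 11 lower, with a median change of -0.61. Among direct partners, CDK2 changed by -0.58, CDK4 by -0.61 and CDK6 by -0.28 (limma adjusted p = 8.49e-06, 3.73e-06 and 0.00102). CDK1, another kinase of this list, changed more, by -2.43 (limma adjusted p = 1.04e-07). The kinases that the CIP/KIP and INK4 proteins bind were thus lower, beside CDKN1A at 1.30 and CDKN2A at -0.73. The falls were largest for the cyclins CCNA2 at -3.33 and CCNB2 at -3.29, and the rises were those of CCNA1 at 0.82 and CCND3 at 0.76. Downstream, 2 of 11 pocket protein and E2F genes were higher (E2F6 at 0.24 and E2F4 at 0.16) and 8 were lower, led by E2F8 at -2.34 and E2F1 at -2.31. RB1, the pocket protein that CDK4 and CDK6 phosphorylate, was at 12.44 ± 0.03 in SAHA and 12.43 ± 0.05 in control and did not pass (limma adjusted p = 0.848), with a sign that turned after a further quantile normalization and after centring on housekeeping genes.

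Levels of p21 and p27 protein also depend on degradation, and genes of that machinery were mostly lower. Of 13 measured genes 3 were higher, 9 were lower and 1 did not pass, with a median change of -0.58. DTL, the adaptor that sends p21 to the CUL4 ligase, had 8.99 ± 0.12 in SAHA and 11.68 ± 0.02 in control, and SKP2, the F-box protein that targets p27, had 10.98 ± 0.02 in SAHA and 11.76 ± 0.07 in control (log2 units, SD, n = 3 each). CDC20, an activator of the anaphase-promoting complex, changed by -2.37. RNF123, the KPC1 ligase for p27, rose by 0.88 and CUL4B by 0.71, while CUL4A changed by -0.47. Thus CDKN1B mRNA and SKP2 mRNA were both lower, and CDKN1A mRNA was higher while DTL mRNA was lower. Protein was not measured.

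Among other modulators of CDK activity, 3 of 12 measured genes were higher and 6 were lower, with a median change of -0.20. The largest falls were those of CDC25C at -3.01 and CDC25A at -2.40, phosphatases that remove inhibitory phosphates from CDKs, while the related CDC25B changed by -0.35. The kinases that add those phosphates were lower too, PKMYT1 at -1.69 and WEE1 at -0.92. MNAT1 and CDK7, subunits of the CDK-activating kinase, rose by 1.09 and 0.44, while its cyclin gene CCNH, at 0.05, did not pass (limma adjusted p = 0.436). CDKN3, which acts on another phosphate of CDK2, stood beside them at -1.07.

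**Figure D3:**
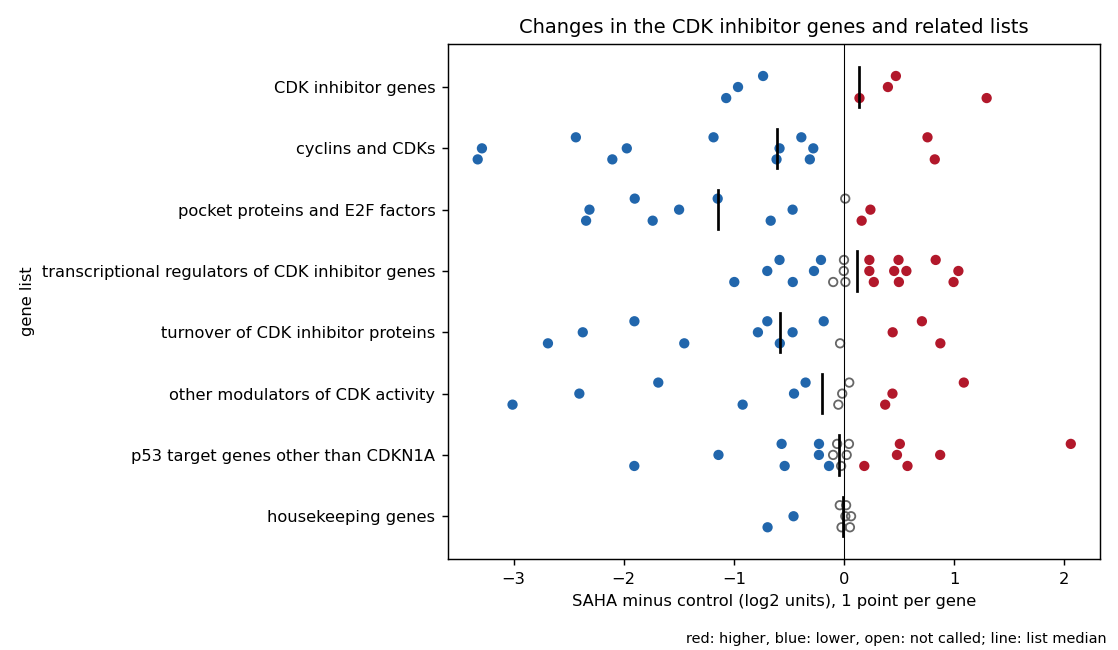
SAHA minus control (horizontal axis, log2 units) for each gene of the CDK inhibitor genes (top row) and of 7 related lists, 1 point per gene, with red for higher, blue for lower, open circles for genes that did not pass the limma test and a black line at the list median. The CDK inhibitor genes lie on both sides of 0 with a median of 0.14, while cyclins and CDKs have a median of -0.61.

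Genes beside the CDK inhibitor genes were compared to see whether changes extended along the chromosome. The 3 nearest measured genes on each side were taken in RefSeq gene order, 36 distinct genes besides the CDK inhibitor genes themselves. Of these 12 were higher and 10 were lower, close to the shares of 31.1% and 28.9% over all genes, and their median change was 0.08. Beside CDKN1A, 1 neighbour was higher and 2 were lower, and the largest change was that of the adjacent SRSF3, a splicing factor gene, at -0.86, opposite to CDKN1A. Beside CDKN1B, 2 were higher and 3 were lower, with GPRC5A, an orphan receptor gene, at 0.46. Beside CDKN1C, 2 were higher and 0 were lower, with PHLDA2, an imprinted growth gene of the same domain, at 0.32 (limma adjusted p = 0.001).

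At the CDKN2A and CDKN2B locus the largest neighbouring change was that of CDKN2A-AS1, a noncoding transcript gene adjoining CDKN2A. Its level was 7.57, 7.59 and 7.85 on the SAHA arrays, against 5.95, 6.27 and 6.61 on the control arrays (log2 units). CDKN2A-AS1 was 2.63-fold higher, a difference of 1.39 ± 0.16 (SE, limma adjusted p = 9.15e-05), beside the 1.66-fold lower CDKN2A. Without detection calls the low control level may be background, in which case the fold is a lower bound, and whether its probes share signal with CDKN2A was not tested. Beside CDKN2D, QTRT1, a tRNA-modifying enzyme gene, changed by -1.18, opposite to CDKN2D. Beside CDKN3, 4 of 6 neighbours were higher, among them the adjacent growth factor gene BMP4 at 1.44, opposite to the fall of CDKN3.

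**Figure D4:**
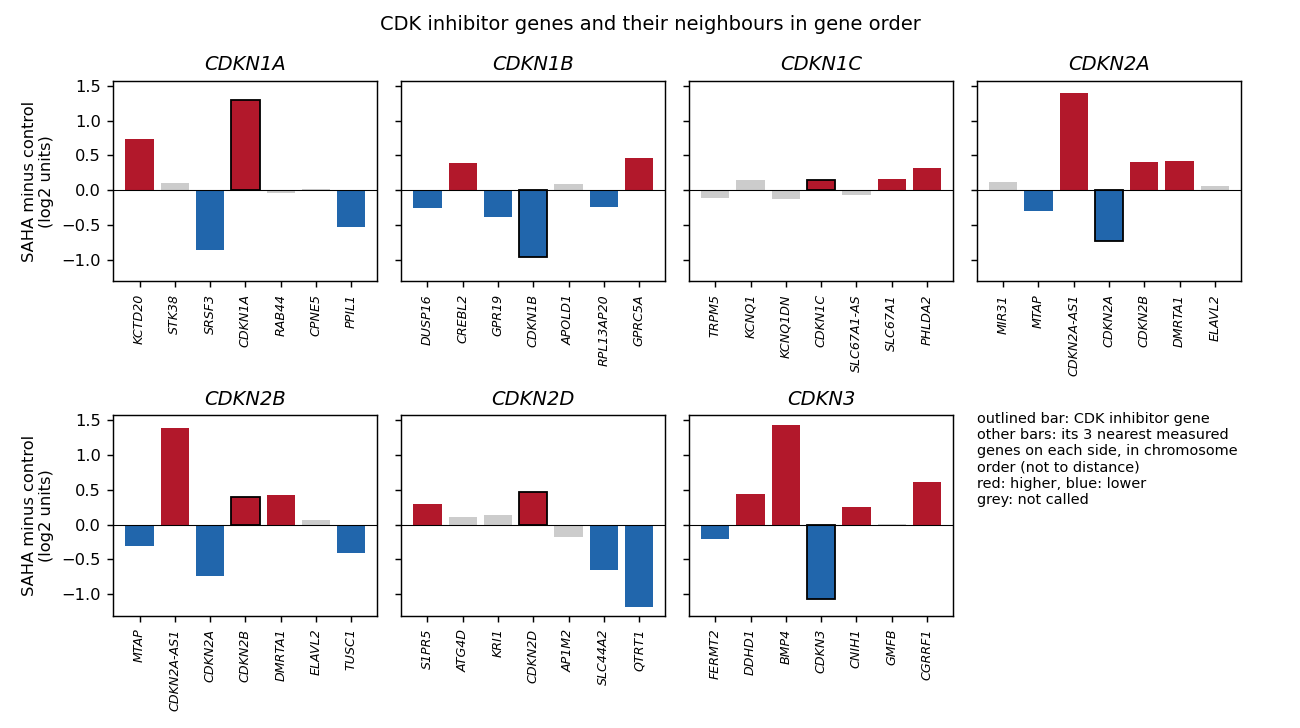
SAHA minus control (vertical axis, log2 units) for each measured CDK inhibitor gene (outlined bar) and its 3 nearest measured genes on each side in chromosome order, with red for higher, blue for lower and grey for genes that did not pass the limma test. CDKN2A-AS1 at 1.39 stands beside CDKN2A at -0.73, and BMP4 at 1.44 beside CDKN3 at -1.07.

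The genes whose pattern over the 6 arrays was nearest to CDKN1A, by the root mean square difference of log2 values after subtracting each gene's own mean, were MT2A, a metallothionein gene (0.021 log2 units), CBR1, a carbonyl reductase gene (0.027), and TCP11L2 (0.029), out of 17574 genes ranked. They changed by 1.26, 1.25 and 1.28 in that order, next to 1.30 for CDKN1A. Nearest to CDKN3 were SLC26A2, a sulphate transporter gene (0.022), FGD1, an exchange factor gene for CDC42 (0.032), and NETO2, a gene of a kainate receptor accessory protein (0.032), which changed by -1.08, -1.12 and -1.06. With only 2 groups of arrays, this measure mostly ranks genes by the size of their change, and it is given as a description without a test.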

How the data were processed

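Expression was measured on 6 arrays, 3 of SAHA-treated and 3 of control A204 cells, grouped by sample titles. The deposited values are signal intensity per probe set, made with RMA, per the submitters' processing notes, a method that corrects background, quantile-normalizes arrays and summarises probes; its software and version are not given in the sources used. The authors' intensity values were on a linear scale, from 6.56 to 20338, and log2 was taken first. Array number limits the precision, RMA would hide a change of total RNA per cell, and changes at low signal may be understated.

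Of 33252 probe sets, 19460 named 1 gene. Symbols were updated through RefSeq (GRCh38.p14; 19429 matched), and each of 18417 genes took its probe set with the highest mean. SAHA was compared with control by limma 3.58.1 in R 4.3.3 (lmFit, eBayes, no covariates, two-sided), with p-values adjusted by Benjamini-Hochberg across all of them and called under 0.05. Confidence intervals are at 95%, from limma's moderated errors. The fit was tested on simulated data with independent noise, where 67, 67 and 66 of 18417 genes were changed by 0.5, 1 and 2 log2 units. It recovered 83.6%, 97.0% and 100% of these in that order, with 6 false calls. Far fewer genes changed there than were called in the real comparison, so the simulation does not test the calls given here.

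Genes and lists were chosen with earlier results of these data known. Named were the CDK inhibitor genes, the 2 largest called rises and falls of each related list, 10 fixed genes of which 1 is not reported here, the largest called neighbour of each gene, and the 3 genes most like CDKN1A and CDKN3 in pattern. CDC25B, PKMYT1, WEE1, CCNH, FOXO1, FOXO3, CBX7, TBX3, TBX2, ID1, CUL4A, CDK1 and the cell type markers given were named after their values were seen. The lists were cyclins and CDKs, pocket proteins and E2F factors, regulators, protein turnover, other modulators, p53 targets and housekeeping genes (0 of 8 measured higher and 2 lower). By limma at an unadjusted p under 0.05, 0 housekeeping genes were higher as well. Alternatives were other scalings, filters on dim genes, averaged probe sets, other error models, array weights, the replicate number as a block, and each array left out in turn.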

Additional observations from a re-analysis of the deposited data

How the results depend on the processing

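CDKN1A, CDKN1B, CDKN2A, CDKN2B, CDKN2D and CDKN3 kept their direction and their call under all 16 alternatives run, the largest adjusted p among them being 0.0238, for CDKN2B. CDKN1C kept its direction, but its call ended after centring on housekeeping genes (0.10, adjusted p = 0.122), with the replicate block (0.14, adjusted p = 0.0849) and in 4 of 6 fits that left out an array, over which the value ran from 0.11 to 0.17; the cause was not tested. Among the single genes run under the alternatives, the block changed no other call. Genes named after their values were seen, the cell type markers and the genes alike in pattern were not run singly. Arrays of the same number deviated from their group means with correlations of -0.030, -0.17 and -0.0042 (Pearson, across 18417 genes), so no shared deviation was seen. The labels do not say whether arrays of the same number were handled together. With the block 5520 genes were called higher and 5081 lower, against 5735 and 5314 without it. Leaving out genes under the median level gave 3660 genes called higher, since fewer genes were tested, and the ordinary unmoderated model called 1 housekeeping gene higher, against 0. Differences close to 0 turned sign. MDM2 was at -0.0029 after a further quantile normalization. RB1 was at -0.031 after a further quantile normalization and at -0.027 after centring on housekeeping genes, and ran from -0.018 to 0.031 with an array left out. SP1 was at 0.026 after a further quantile normalization and at 0.013 with array weights, and ran from -0.027 to 0.043 with an array left out. The planned comparison with other probe sets was not run, because each measured CDK inhibitor gene had 1. Signal over background could not be judged without detection calls.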
